A study of Mus musculus with 2 samples.

Results

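Antisense contigs are stretches of the genome that were covered by sequenced RNA from the strand opposite an annotated gene. A contig is a run of overlapping aligned reads on 1 strand. The contigs described here were chosen by measured values: a reproducibility fraction of 0.1 or less between the 2 libraries, an overlap of 1 bp or more with a gene of the opposite strand, and no overlap with a gene of their own strand. Of 830022 contigs in the series, 424626 met the reproducibility maximum. Of these, 314238 lay on a gene of their own strand, 83472 lay outside genes, and the remaining 26916 were antisense contigs. They faced 9028 of 37310 genes of the Ensembl 65 annotation on the mm9 assembly.

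The tissue was E14.5 whole brain (embryonic day 14.5) of the mouse strain C57BL/6J, from littermates of mixed sex. Per the labels, 2 stranded paired-end libraries were made from polyadenylated RNA, depleted of rRNA and longer than 200 nt, with spike-in RNA added. The labels number the libraries as biological replicates 1 and 2 of the same group, without saying which embryos each was made from. There is no second condition, so no contrast was tested, and the spread between libraries may be technical. Expected counts on annotated genes summed to 103493289 for replicate 1 and 97539730 for replicate 2. All 8 brain markers stood above 1 TPM (transcript abundance scaled to the same total in each library) in both libraries, with a summed level of 4745 TPM (replicate 1) and 4666 TPM (replicate 2). Red cell markers were summed at 6861 and 8138 TPM, and those of meninges and bone at 146 and 366 TPM. The part of these cell types in the antisense contigs was not tested.

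Antisense RNA is transcribed from the strand opposite a gene and is complementary to that gene's RNA where both cover the same bases. Some antisense RNAs are long noncoding RNAs of imprinted domains, where only the copy from one parent is transcribed: Kcnq1ot1 silences neighbouring genes on the paternal chromosome, and the antisense part of Snhg14 silences paternal Ube3a in neurons. Others start near a gene's promoter and run away from it, or are the far end of a neighbouring gene that runs into the gene opposite.

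Sets of sequences show what annotated RNA and which promoters lay at these contigs. The first are the last 60 bases of the longest annotated transcript of the antisense RNAs at 3 of the loci described below, in the direction of transcription, from the GENCODE vM21 transcripts of mm10. Snhg14 lies at chr7:59307924-59975759 on the minus strand opposite Ube3a, Kcnq1ot1 at chr7:143203458-143296549 on the minus strand opposite Kcnq1, and Zfhx2os at chr14:55053869-55075873 on the plus strand opposite Zfhx2. Capitals mark the poly(A) signal AATAAA or, where it is missing, the variant ATTAAA. Kcnq1ot1 holds both, and its ATTAAA is left in lower case.
Snhg14: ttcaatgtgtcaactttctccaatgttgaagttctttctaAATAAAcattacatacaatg
Kcnq1ot1: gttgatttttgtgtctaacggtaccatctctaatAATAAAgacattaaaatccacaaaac
Zfhx2os: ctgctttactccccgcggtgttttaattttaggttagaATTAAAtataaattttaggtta
The part in capitals began 20 bases from the end in Snhg14, 26 in Kcnq1ot1 and 22 in Zfhx2os. AATAAA or ATTAAA was searched on the transcript's strand. It was found in the last 60 bases of 28.1% of 55398 annotated noncoding transcripts. Of the 112 annotated noncoding antisense genes that reached 1 TPM and are described below, 84 had it in at least 1 transcript, against 564 (63.6%) of all 887 noncoding genes at 1 TPM or more and 5794 (43.3%) of 13371 at any level. A match is a description of the letters, not a site shown to be used.

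The second set are the 250 bases before the start of 3 genes whose start was covered by an antisense contig of high level. The sequences are RefSeq's, GRCm38.p6, read in the direction of the gene, with CG dinucleotides in capitals. Gorasp2, for a Golgi stacking protein, is on the plus strand (chr2:70661259-70661508). Mat2a, for the enzyme that makes S-adenosylmethionine, is on the minus strand (chr6:72439557-72439806). Tmem147, for a membrane protein of the endoplasmic reticulum, is also on the minus strand (chr7:30729535-30729784).
Gorasp2: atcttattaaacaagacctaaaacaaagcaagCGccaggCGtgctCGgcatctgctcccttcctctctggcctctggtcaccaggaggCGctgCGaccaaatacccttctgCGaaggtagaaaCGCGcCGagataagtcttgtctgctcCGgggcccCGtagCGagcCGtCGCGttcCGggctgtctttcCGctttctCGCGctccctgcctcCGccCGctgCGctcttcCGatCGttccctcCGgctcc
Mat2a: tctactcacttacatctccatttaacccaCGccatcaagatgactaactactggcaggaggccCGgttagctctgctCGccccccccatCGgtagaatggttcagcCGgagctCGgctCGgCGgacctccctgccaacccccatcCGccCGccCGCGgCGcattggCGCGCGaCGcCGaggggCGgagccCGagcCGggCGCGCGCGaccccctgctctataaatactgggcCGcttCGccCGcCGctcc
Tmem147: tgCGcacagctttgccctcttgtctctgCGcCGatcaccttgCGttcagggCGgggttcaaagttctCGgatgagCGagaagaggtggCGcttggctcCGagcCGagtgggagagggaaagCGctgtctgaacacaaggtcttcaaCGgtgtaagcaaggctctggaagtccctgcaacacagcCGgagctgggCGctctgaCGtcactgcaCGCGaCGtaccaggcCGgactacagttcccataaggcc
These windows held 25, 29 and 19 CG dinucleotides. Antisense contigs covered the start of 2205 genes, of which 1426 had a RefSeq promoter entry. Among protein-coding genes at a mean of 1 RPKM (reads scaled by gene length and library size) or more, the median was 18.0 CG dinucleotides in 969 promoters with an antisense contig over the start and 17.0 in the other 6725. GGGCGG was found on the gene's strand in 40.6% and 39.5% of these promoters and on the other strand in 38.4% and 38.6%. TATAAA was found on the gene's strand in 2.27% and 3.49% and on the other strand in 1.86% and 2.66%. The TATAAA shares were thus the lower ones under antisense contigs, and neither difference was tested.

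Antisense contigs were mostly short and of low level. The level of a contig is its summed read bases divided by its length and scaled by a constant for the whole file, as on an RPKM scale, and both libraries are pooled in it. The median was 0.0950, with quartiles at 0.0650 and 0.180, and the highest was 2530. The median length was 497 bp and the longest contig had 54583 bp. The median contig held read bases worth 24.0 reads of 101 nt, and the lowest 11.3. Together the antisense contigs covered 22.6 Mb and held 2.24% of the read bases of all contigs, or 0.733% without the single contig of highest level. Contigs on a gene of their own strand had a median level of 0.109 and a median length of 860 bp, and contigs outside genes 0.0820 and 608 bp. Only 5.20% of antisense contigs exceeded a level of 1, against 10.9% of sense contigs and 3.02% of contigs outside genes.

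The reproducibility fraction came from the same reads as the level, so the level is a description of contigs that were selected on it. Of the antisense contigs, 10031 had a fraction of 0. Just inside the maximum, at 0.0900, 2611 contigs had a median level of 0.0680. The nearest value outside it, 0.130, was that of 2974 contigs with a median of 0.0650. In all, 70695 contigs opposite genes lay above the maximum and are not described further.

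**Figure D1:**
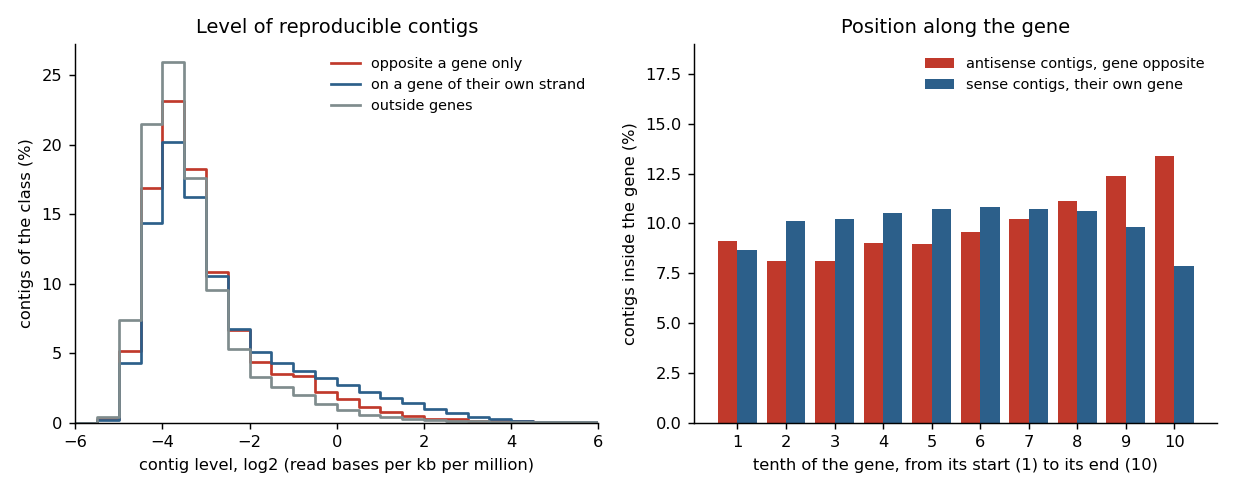
Left, share of contigs (%) by level (log2) for antisense contigs, contigs on a gene of their own strand and contigs outside genes, all at a reproducibility fraction of 0.1 or less. Right, share of contigs (%) that lay wholly inside a gene for 10 equal parts of that gene from start to end, where the antisense contigs had 9.12% in the first part and 13.4% in the last.

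The contigs lay mostly over introns of the gene opposite. The share of these genes' length that is intron is not given here, so this describes position and not enrichment. Of 26916, 19033 (70.7%) touched no exon, 7883 (29.3%) touched an exon by 1 bp or more, and 2493 (9.26%) had at least 50% of their length on exons. Contigs that touched an exon had a median level of 0.112 and a median length of 814 bp, and intronic ones 0.0900 and 435 bp. The start of a gene opposite was covered by 2171 contigs (8.07%), with a median level of 0.152 and a median length of 1411 bp. The end of a gene was covered by 1026 (3.81%), with a median level of 0.118. Contigs over gene starts were thus longer and of higher level than intronic ones. The difference in length follows in part from the classes, since a longer contig is more likely to cover a given point. Contigs over gene ends had a median length of 1299 bp. Of contigs wholly inside a gene, 13.4% were centred in the last 10% of the gene's length and 9.12% in the first 10%, whereas contigs on their own gene's strand had 7.87% and 8.69% there.

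Some antisense contigs lay beside a gene of their own strand. A same-strand gene began or ended within 5 kb of 4550 contigs (16.9%). Of all contigs, 11.8% lay within 5 kb after the end of such a gene and 6.45% within 5 kb before the start of one, and these sets overlap. The contigs within 5 kb had a median level of 0.0870 and those farther away 0.0970.

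The genes opposite were mostly protein-coding and often long. Of the 9028 genes, 7848 were protein-coding, 167 lincRNAs, 165 antisense RNAs and 172 processed pseudogenes in GENCODE vM21, and 371 had no entry there. An antisense contig was found for 24.2% of all annotated genes, for 38.9% of the 20175 protein-coding genes, and for 49.6% of the 9653 protein-coding genes at a mean of 1 RPKM or more. Among protein-coding genes under 1 RPKM the share was 29.1%. Among the expressed genes it was 21.4% for those under 10 kb, 43.9% from 10 to 30 kb, 63.2% from 30 to 100 kb and 87.2% over 100 kb. Expressed genes with an antisense contig had a median length of 41.3 kb and a median level of 3.40 RPKM, and those without 13.8 kb and 4.06 RPKM. Length thus separated these genes more than level did. A single contig was found for 4324 genes and 10 or more for 475.

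The genes with the most antisense contigs had very long intervals in this annotation or many intronic contigs of low level. Gm20388, annotated over 4435 kb, faced 188 contigs with a median level of 0.0960. Fgfr2, the gene of a fibroblast growth factor receptor, is listed over 3009 kb in this table and faced 76. E130114P18Rik faced 94 contigs over 210 kb with a median of 0.0925. F13a1, for the A subunit of coagulation factor XIII, faced 78, and Macrod1, for a macrodomain protein, faced 71, of which 0 touched an exon. Among neuronal genes, Kirrel3, for an adhesion protein of the synapse, faced 66, and Ptprd, for a receptor phosphatase that organises synapses, faced 65. The median level was 0.0815 at Kirrel3 and 0.0950 at Ptprd, and the highest 0.299 and 72.5. Mef2c, the transcription factor of maturing neurons, faced 64 contigs that covered 120567 bp with a median level of 0.108, a minimum of 0.0300 and a maximum of 0.230.

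The level of each antisense contig was set beside that of the contigs on the gene's strand that overlap it, called the sense level here. The sense level is the mean of whole contigs, weighted by overlap, so a contig that joins exons and introns gives its mean to an intronic stretch as well. The ratio is therefore not one over the same bases alone, and it does not test leak of the sense strand into the other strand. Of the antisense contigs, 22249 (82.7%) overlapped a contig of the gene's strand, and 13513 were overlapped over their whole length. The median antisense level was 31.7% of the sense level, a log2 ratio of -1.66, with quartiles at 10.7% and 94.0%. The antisense contig was above the sense level in 5280 cases (23.7%). It was at or under 1% of the sense level in 335 cases (1.51%), at or under 2% in 1015 and at or under 10% in 5271. Across contigs, the log2 levels of both strands had Pearson's r of 0.17 and Spearman's rho of 0.16 (n = 22249 contigs, which share libraries and genes). Over the 2244 overlapped contigs with at least 50% of their length on exons, Pearson's r was 0.48.

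Antisense medians differed less between bins of the sense level than the sense level itself. Among contigs wholly overlapped by sense contigs, the median antisense level was 0.0960 where the sense level was above 0.1 and up to 0.3 (n = 3075). It was 0.104 where the sense level was above 3 and up to 10 (n = 1443), and 0.139 where it was above 30 and up to 100 (n = 28). The 2 contigs above a sense level of 100 had a median of 78.7. The 95th percentile of the antisense level was 0.868 where the sense level was above 0.3 and up to 1, and 15.2 above 30 and up to 100. For the bins from 0.1, 3 and 30 the median share of the sense level was 53.5%, 2.33% and 0.321%. The reproducibility maximum keeps few contigs of low read number: the members held at least 11.3 reads, whereas the contigs opposite genes above the maximum held a median of 4.00 and as few as 1. Medians close to that floor are in part set by the selection. Antisense contigs without any sense contig had a median level of 0.0810 (n = 4667).

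**Figure D2:**
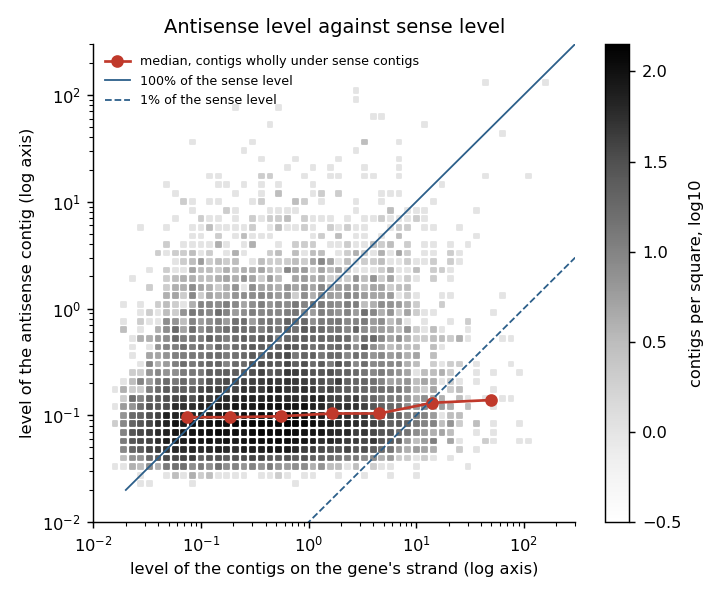
Level of each antisense contig against the mean level of the contigs on the gene's strand that overlap it, both on log axes (scaled read bases per length), with grey squares for the number of contigs. Red points are medians of contigs wholly under sense contigs, in bins of at least 20, which lay between 0.0960 and 0.139 (the 2 contigs above a sense level of 100 have no point), and blue lines mark 100% and 1% of the sense level.

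Both strands were also compared over exons of protein-coding genes that no gene of the other strand overlaps, as the contig levels averaged over all exon bases, with every contig counted whatever its reproducibility. Of 33 genes with a sense level of 100 or more over their exons, 31 had no antisense contig there (93.9%, exact 95% interval 79.8% to 99.3%, for counting error only). Tuba1a, the alpha-tubulin of young neurons, had a sense level of 589 and Tubb2b, a beta-tubulin, 523, both with no antisense contig. Eef1a1, the translation elongation factor, stood at 439 and Actb, for beta-actin, at 299, again with none. The 2 exceptions were mt-Nd4, a mitochondrially encoded subunit of respiratory complex I, with an antisense level of 0.00134% of the sense level, and Hsp90ab1, for a heat shock protein, with 6.80%. At lower sense levels antisense contigs were more frequent: the share of genes without one was 62.6% of 1045 genes from 10 to 100, 53.6% of 8800 genes from 1 to 10, and 46.7% of 4038 genes from 0.1 to 1. Whether contigs were filtered by strand before deposit is not given in the sources used, and leak that such a filter would remove was not tested.

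**Figure D3:**
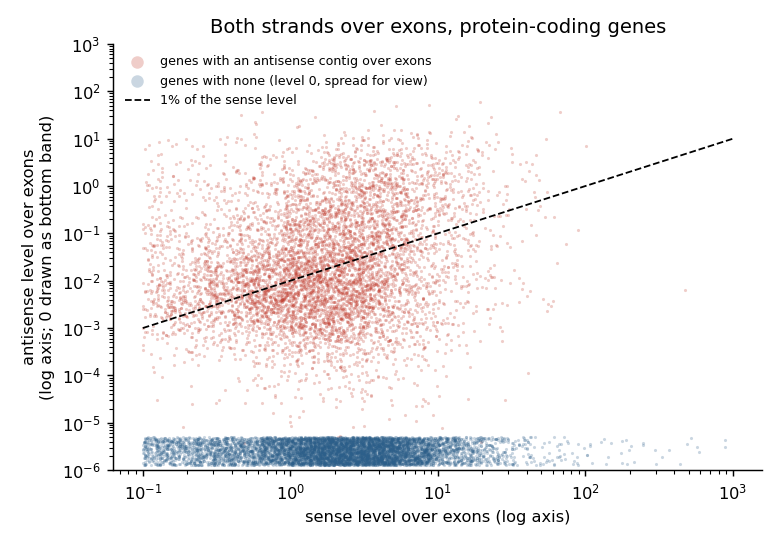
Antisense against sense level over the exons of each protein-coding gene, both on log axes, with genes that had no antisense contig drawn in blue as a band at the bottom. The dashed line marks 1% of the sense level, and 31 of the 33 genes at a sense level of 100 or more are in the band.

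The contigs facing the highest sense levels showed the same spread. At Mapt, the gene of the axonal microtubule protein tau, a contig of 467 bp stood at 0.0872% of a sense level of 91.7. At Baz2a, for a chromatin remodelling subunit, a contig stood at 0.0590 against 89.5. At Tuba1b, an alpha-tubulin, contigs of 267 and 2896 bp stood at 0.317 and 0.487 against 73.3, and the second covered the gene's start and had a canonical junction of 63 reads. These were all under 1% of the sense level. At the other end, Hsp90ab1 faced a contig of 930 bp at 18.4 against 101, and Ptms, for parathymosin, faced one of 1302 bp at 45.7 against 66.9. Both of these lay in part on exons and had no canonical junction as their best one. Gap43, for a growth cone protein, faced a contig of 270 bp at 27.2 against 1.92, of which 165 bp lay on exons.

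The highest levels belonged mainly to contigs shorter than a read. Of 116 antisense contigs above a level of 10, 81 were at most 101 bp long, 26 touched an exon, and 43 had no contig on the gene's strand. The highest, at chr17:39979941-39985840, had 5900 bp, a level of 2530 and 865431707 read bases, opposite a gene with no symbol whose level was 0.0535 and 0.00867 RPKM. This contig covered both the start and the end of that gene. Which RNA it held was not identified, and whether it was rRNA left after depletion was not tested. Its level is therefore not shown to be that of an antisense RNA of the gene. Next came 79 bp opposite Il1rapl1 at 954 and 19 bp opposite Ntn4, a netrin, at 805. Contigs of 522 bp opposite Jarid2 at 714, of 441 bp opposite Arhgap21 at 466 and of 310 bp opposite Sspn at 205 were longer, lay on introns, and faced no sense contig. De novo exons deposited by the authors at these 3 places had 42.2 and 163 RPKM for Jarid2, 20.2 and 48.2 for Arhgap21, and 6.13 and 12.6 for Sspn as first and second value. The files do not tie these values to a library. The second value was the higher at all 3, by between 2- and 4-fold.

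The longest antisense contigs included those of known antisense RNAs. At Kcnq1, a potassium channel gene of an imprinted domain, 22 contigs covered 106 kb of introns and exons. The gene itself was low, at 0.0741 and 0.0751 RPKM. The longest, chr7:150434819-150482467, had 47649 bp at a level of 0.558, and the neighbouring one of 22328 bp stood at 0.688. The sense contigs under them had levels of 0.0783 and 0.0489 and covered only 3.84% and 27.3% of their length. Antisense RNA was thus above the gene's own RNA over most of this stretch.

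At Ube3a, for a ubiquitin ligase, 9 contigs covered 98.9 kb and reached past both ends of the gene. Their levels lay between 0.295 and 1.01, with 1.01 over 28061 bp and 0.895 over 29107 bp. The gene had 1.82 and 1.51 RPKM, and sense contigs lay under most of the length. Over the 6 contigs of more than 2 kb the antisense level was from 10.5% to 134% of the sense level. The highest best junctions among these contigs had 174 reads (93 and 81 as first and second value) and 129 reads (63 and 66), both canonical. The contig of 28061 bp had a canonical one of 39 reads. At the contigs of 2926 and 19148 bp the best junctions had 1 and 3 reads and were not canonical, and the contig of 2665 bp had none. Both strands of this gene were therefore covered in the pooled tissue, and whether the same cells held both RNAs cannot be told apart from different cells.

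At Zfhx2, for a homeodomain zinc-finger protein, 1 contig of 31674 bp stood at 3.76 against a sense level of 2.59, and its best junction had 311 reads. The gene's other 5 contigs were between 0.0760 and 0.197. The gene's own level was 2.90 and 0.971 RPKM. At Copg2, for a coat protein of transport vesicles beside the imprinted gene Mest, 15 contigs had a median level of 0.0560, and 1 of 7975 bp stood at 34.1 against a sense level of 3.19. That contig lay 54354 bp after the end of Mest, which is on the same strand. By distance from the start of Copg2, contigs of both strands stopped at 93.982 kb and resumed at 143.988 kb, with none between. Beyond this empty stretch, contigs on the strand of Mest stood at 21.3 and 22.3, from 143.988 to 158.828 kb. Whether the stretch holds known sequence in mm9 was not tested. The distance therefore does not show that the contig is separate from RNA of Mest. At Sall1, for a zinc-finger transcription factor, a contig of 25850 bp over the gene's start had a level of 0.480 against 0.0737 on the gene's strand, with a canonical junction of 58 reads.

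**Figure D4:**
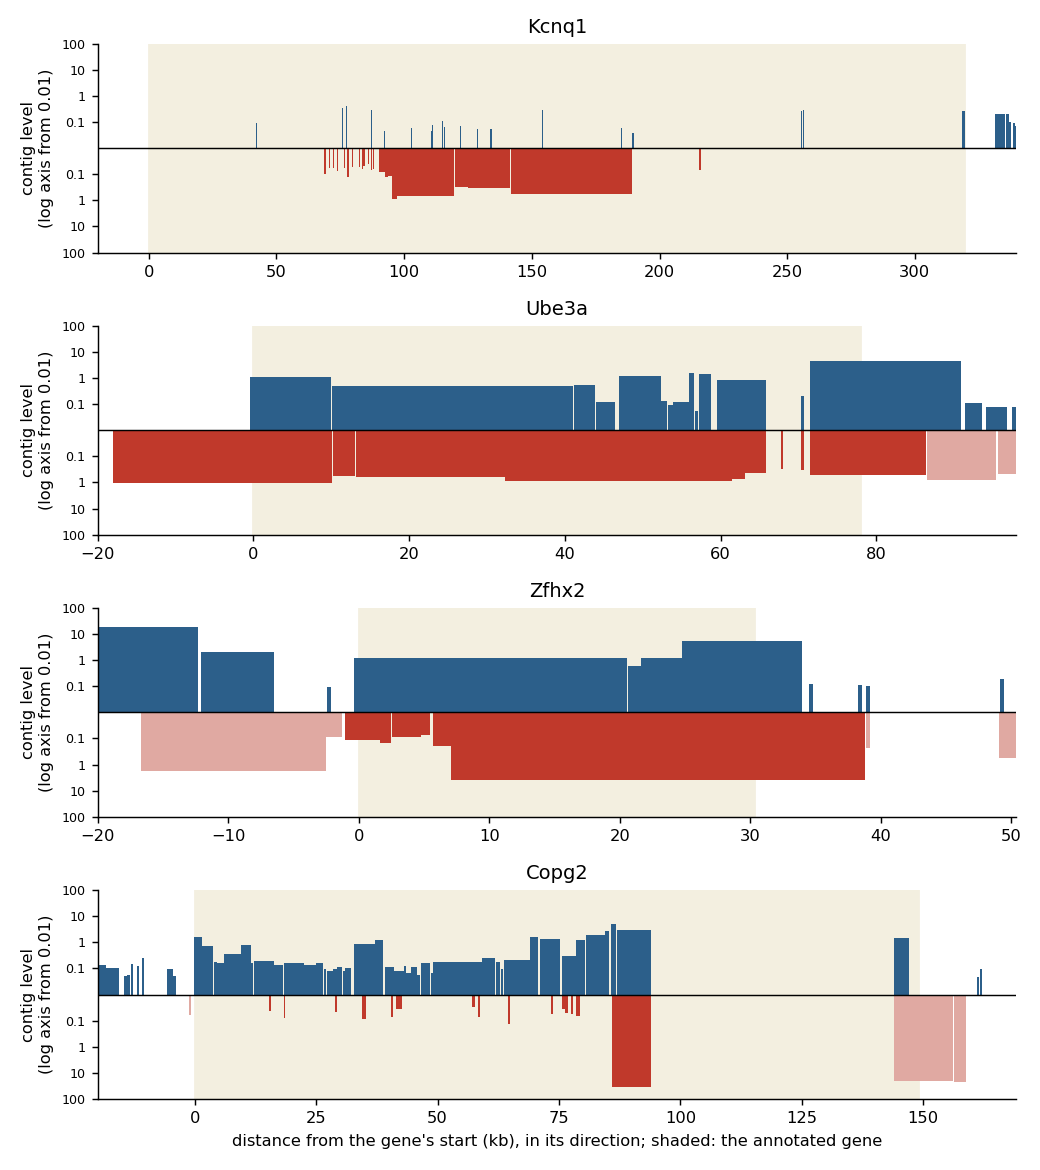
Contigs of both strands at Kcnq1, Ube3a, Zfhx2 and Copg2 by distance from the gene's start (kb, in the gene's direction), with the level on a log axis from 0.01. Blue bars upward are on the gene's strand, dark red bars downward are antisense contigs (at Ube3a between 0.295 and 1.01), light red ones are contigs of that strand that are not members, and the shaded span is the annotated gene.

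Among the imprinted genes listed, 11 of 26 annotated ones faced an antisense contig (8 of the 22 at 1 RPKM or more), against 49.6% of expressed protein-coding genes. Their 67 contigs had a median level of 0.0890. The median gene length was 23.0 kb, and among all expressed genes from 10 to 30 kb the share was 43.9%. Besides the loci above, Gnas, for the stimulatory G-protein alpha subunit, faced 3 contigs, of which 1 of 5956 bp stood at 1.23 against 7.78 with a junction of 81 reads. Plagl1, a zinc-finger factor, faced 4, the highest at 3.18 against 26.9. Dio3, for the deiodinase that inactivates thyroid hormone, faced 1 over its start at 0.443. Of 35 genes listed because an antisense RNA is known, 17 faced an antisense contig (48.6%, against 38.9% of protein-coding genes), and 9 of the 22 at 1 RPKM or more did (40.9%, against 49.6%). They had 77 contigs in all, with a median level of 0.107, and the median gene length of the list was 22.8 kb. Antisense RNAs that are themselves genes of this annotation are not counted here by the rule.

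Among developmental transcription factors, 18 of 48 annotated genes faced an antisense contig (17 of 44 at 1 RPKM or more, 38.6%, against 49.6% of expressed protein-coding genes). These are short genes, with a median length of 8.03 kb, and among all expressed genes under 10 kb the share was 21.4%. The list was thus under the share of all expressed genes and above that of short ones, which was not tested. The 85 contigs had a median level of 0.0970, and 83 had a sense contig. Pax6, a regulator of forebrain and eye progenitors, faced 3 contigs, all on exons, at 0.164, 0.218 and 0.243. Otx1 faced 1 over its start at 0.849 against 0.161 on its own strand. Lhx2, a cortical selector gene, faced 8, of which 7 were between 0.0400 and 0.164 and 1 of 1712 bp stood at 0.487 against 5.51. Nr2f2 faced 4, the highest at 0.330 with a junction of 54 reads. Meis2 faced 16 and Tcf4 faced 19, of which only 1 in all touched an exon. Among Hox genes, 6 of 38 annotated genes faced a contig (15.8%, against 38.9% of protein-coding genes), and 2 of the 6 at 1 RPKM or more did. Hox genes were shorter still, with a median length of 4.04 kb. Their 8 contigs had a median level of 0.0920, and those of Hoxa2 at 0.170 and Hoxd3 at 0.0630 were examples.

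Most axon guidance and synapse genes faced an antisense contig, and both lists hold long genes. Of 24 axon guidance genes 22 did (19 of 21 at 1 RPKM or more, 90.5%), and their median gene length was 341 kb. Of 23 synapse and channel genes 20 did, all of the 23 being at 1 RPKM or more (87.0%), with a median of 135 kb. The share was 87.2% among all expressed genes over 100 kb. Only 10 of 199 contigs of the first list and 10 of 204 of the second touched an exon, and the median levels were 0.111 and 0.1. Dcc, for the netrin receptor, faced 34 contigs with a median of 0.101. Robo1 and Robo2, the receptors of Slit proteins, faced 19 and 17, with medians of 0.0830 and 0.0910. Nrxn3, for a presynaptic adhesion protein, faced 55 with a median of 0.0840. Ephb1 and Efna5 faced the highest contigs of the guidance list, at 18.5 over 52 bp and 11.4 over 53 bp, both shorter than a read.

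Cytoskeleton and translation genes, many of them highly expressed, had shares of 44.4% and 45.5%, against 49.6% of expressed protein-coding genes. Their median gene lengths were 26.4 kb and 5.56 kb. Among all expressed genes the share was 43.9% from 10 to 30 kb and 21.4% under 10 kb. The share of the translation list was thus above that of genes of like length. With only 11 expressed genes, this was not tested. Of 18 cytoskeleton and young neuron genes, all expressed, 8 faced an antisense contig (44.4%), with 38 contigs and a median level of 0.115. Nefm, for a neurofilament subunit, faced contigs of 8049 bp at 2.27 and of 1919 bp at 1.75, and the first covered its start. Stmn2, for a microtubule regulator of growing axons, faced 4 contigs, the highest at 0.532 against 27.2. Map2, for a dendritic microtubule protein, faced 10, the highest at 0.769. Of 12 ribosomal protein and translation genes 5 faced a contig (5 of the 11 at 1 RPKM or more, 45.5%). Rpl13a, for a large-subunit protein, faced 2, and the higher stood at 0.239 against 49.5, or 0.483% of the sense level. Eef1a1, at 701 and 669 RPKM, faced 1 intronic contig at 0.0760. Eif4a1, for an RNA helicase of translation initiation, faced 1 of 8620 bp at 0.993 that also faced Senp3.

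Splice junctions gave a second view of these contigs. A junction of the contig's own strand lay inside it or within 5 bp of its end in 9103 contigs (33.8%), but the best junction had 1 read in 5316 of them. Junctions of 10 reads or more were found at 827 contigs (3.07%), and in 588 of these the best one carried the canonical flag. The 588 contigs had a median level of 0.292, and 94 of them faced no sense contig. The same intron was listed on the other strand for 0 of the 588. Over the 500 distinct canonical junctions of 10 reads or more, the median log2 ratio of the second to the first read count was -0.34, with quartiles at -0.99 and 0.23.

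Among canonical junctions, those with the most reads were at Sfi1, Cpsf2 and Gapdhs. Best junctions without the canonical flag reached 3912 reads at the contig of highest level on chr17 (616 and 3296) and 2026 at a contig of 83 bp opposite Slc9a9 (1039 and 987). Opposite Sfi1, for a centrosomal protein, a contig of 1272 bp at 11.8 had a junction of 2601 reads, 1597 in the first and 1004 in the second value. Opposite Cpsf2, for a subunit of the mRNA cleavage complex, a contig of 9622 bp over the gene's start had 2495 reads, 1457 and 1038. Opposite Gapdhs, the sperm form of a glycolytic enzyme, a contig of 6451 bp had 1676 reads, 1118 and 558. That contig, chr7:31513948-31520398 in mm9, also covered the Tmem147 start whose promoter is printed above. Opposite Gtf2e2, for a general transcription factor subunit, a contig of 1787 bp at 4.68 had 1199 reads, 797 and 402. The 4 canonical junctions had reads in both values, with the first higher.

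De novo exons assembled by the authors overlapped 7802 antisense contigs on the same strand (29.0%). Their levels were low, with medians of 0.0196 RPKM as first value and 0.0164 RPKM as second. Both values were above 0 in 6486 of them, and there the median log2 ratio of the second to the first was -0.38. Across the 7802 contigs, the log2 contig level and the log2 mean de novo RPKM (plus 0.001) had Pearson's r of 0.02. A de novo exon at a mean of 1 RPKM or more was found for 148 contigs (0.550%).

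Annotated genes of the newer mm10 tables named part of the RNA and gave 1 value per library. Genes that were absent from the older annotation by identifier and lay opposite a gene with an antisense contig numbered 985, opposite 778 of these genes. They were taken by gene, not by coordinates, since the assemblies differ. Of the 985, 130 (13.2%) reached a mean of 1 TPM, among them 58 of the class antisense, 20 lincRNAs, 16 processed transcripts and 10 protein-coding genes. The value of such a gene covers all of it and not only the stretch opposite.

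Snhg14, the host of small nucleolar RNAs that runs on into the Ube3a antisense RNA, stood at 373 TPM in replicate 1 and 403 in replicate 2 (388 ± 21.5, SD, n = 2). Ube3a had 10.3 and 14.6 TPM. Tmem147os, opposite Gapdhs, had 52.4 and 34.7 TPM, and Smim18, a protein-coding gene opposite Gtf2e2, 59.8 and 39.3. Zfhx2os had 23.8 TPM in replicate 1 and 9.82 in replicate 2 (16.8 ± 9.91, SD, n = 2), whereas Zfhx2 had 8.62 and 26.6. In these TPM values the 2 genes thus ran in opposite directions between the libraries. The mm9 values, which are not tied to a library, did not show this. There Zfhx2 had 2.90 and 0.971 RPKM, and the best junction of the antisense contig had 192 and 119 reads. Both had the higher first value, and the difference between the deposited values was not resolved. Kcnq1ot1 had 0.670 and 1.32 TPM against 0.790 and 0.910 for Kcnq1. Its expected counts were 3866 and 6794, spread over a transcript of 93092 bases.

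Over the 130 genes at 1 TPM, the median log2 ratio of replicate 2 to replicate 1 on the scale log2(TPM + 1) was -0.16, and 91 (70.0%) were lower in replicate 2. Over all 15240 genes of the mm10 tables at 1 TPM the median was 0.01, and 48.8% were lower. At least 2-fold lower in replicate 2 were 10 of the 130, and 1 was at least 2-fold higher. Snhg6, the snoRNA host gene opposite Mcmdc2, had 130 and 66.5 TPM, and Mir124-2hg, the host gene of a neuronal microRNA, 105 and 94.9. With 1 library against 1 no test was possible, and the markers of meninges and bone were also higher in replicate 2. Their part in this difference was not tested.

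**Figure D5:**
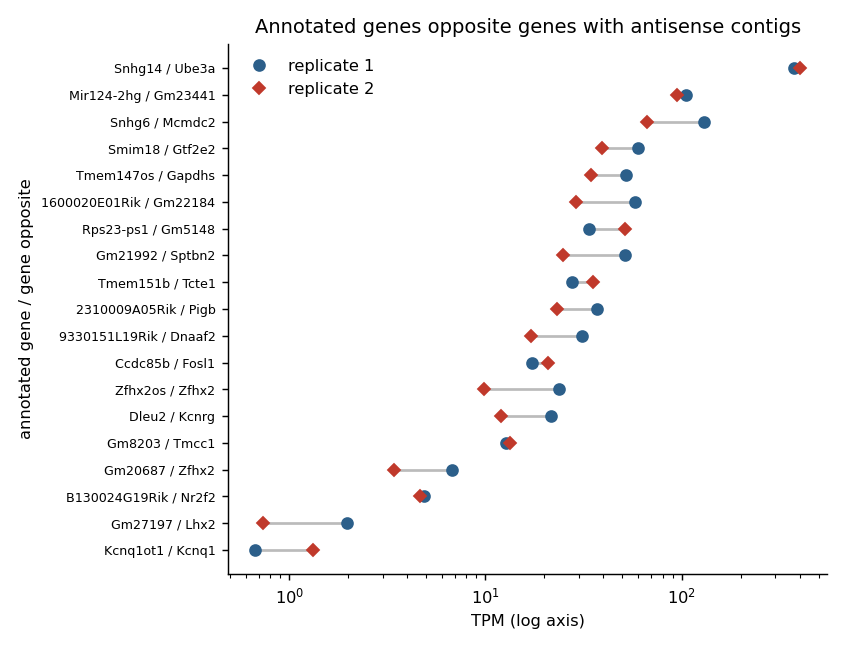
TPM on a log axis of annotated genes lying opposite a gene with an antisense contig (name of the gene, then of the gene opposite), with replicate 1 as blue circles and replicate 2 as red diamonds. Snhg14 was the highest in both libraries, at 373 and 403 TPM, and Zfhx2os had 23.8 and 9.82 TPM.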

How the data were processed

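RNA of E14.5 whole mouse brain was measured in 2 libraries of 1 group. Contigs and junctions were deposited by the authors on mm9 with both libraries together (caller and aligner: not given in the sources used here). Contig signal, as deposited by the authors, equals summed read bases per bp times 0.0172 (checked on contigs above level 1). The deposited reproducibility fraction is low where the libraries were alike. Junction read counts were deposited as a sum with 1 count per replicate, of which the sample is not given. The authors' RPKM values of Ensembl 65 genes and of de novo exons come as a first and a second value. Expected counts, TPM and FPKM per gene were deposited for each library on mm10 with GENCODE M4, per the submitters' processing notes. TPM values include spike-in and mitochondrial rows in their scale, as deposited by the authors.

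The mm9 gene table repeats each gene, so 37310 of its 74620 lines were used. Symbols and classes came from GENCODE vM21 by identifier, for 32620 of these genes. Overlaps were found with bedtools 2.31.1, in Python 3.11.15 with numpy 2.4.6, pandas 2.3.3, scipy 1.17.1 and matplotlib 3.10.9. The sense level of a contig is the mean level of contigs of the gene's strand, weighted by overlap. Where several genes lay opposite, the one with the largest overlap was named. Exons with a gene on the other strand, and genes with under 100 bp of exons left, were left out of the exon comparison. Pairs of annotated genes on mm10 came from GENCODE vM21 coordinates and were matched to contigs by gene identifier, with a pseudocount of 1 on the TPM. No mm9 genome was used here, so no sequence was read by mm9 coordinates. The choice of the antisense contigs and their sense level were tested on simulated contigs with a fixed ratio between the strands. The other steps were not tested in this way. Intervals of shares are exact binomial and those of medians come from ranks, both at 95%, and treat contigs as independent.

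Named were the 20 contigs of highest level, the 10 longest, the 10 highest relative to sense, the 10 with the highest sense level, the 10 genes with most contigs, the 3 highest of each gene list and the 15 highest annotated antisense genes; not all of these appear, and members of the gene lists appear with their counts. The contigs with the most junction reads and the members at Kcnq1, Ube3a, Zfhx2, Copg2, Sall1, Gnas and Nefm were named after their values were seen. The members and lists were chosen with earlier results of these data known. Alternatives varied the reproducibility maximum, the overlap, the genes opposite, the contig length, the sense level, the junction and de novo thresholds, the distance, the pseudocount, the low filter, and each replicate left out.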

Additional observations from a re-analysis of the deposited data

How the results depend on the processing

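Of 82 alternative values, 54 moved beyond the counting interval of a share or median or by over 1.5 times for a count, and 28 did not. The log2 ratio to the sense level kept its sign in all of its alternatives. With a reproducibility maximum of 0.05, the median level was 0.111, the share with a sense contig 83.2%, the log2 ratio -1.49, exon overlap 35.0%, a junction 39.4%, a de novo exon 33.1% and a same-strand gene within 5 kb 18.0%. With 0.01, 12605 contigs were left and these values were 0.135, 84.3%, -1.28, 43.5%, 47.6%, 34.7% and 19.3%. With at least 50% of the contig on the gene opposite, the level was 0.0930, exon overlap 24.1% and a junction 31.7%. For contigs wholly inside the gene the level was 0.0920, the log2 ratio -1.61, exon overlap 21.0%, a junction 30.6% and a near gene 16.0%. With protein-coding genes only, a sense contig was found for 85.4%, the log2 ratio was -1.72, exon overlap 28.7%, a de novo exon 26.9% and a near gene 15.2%. Without contigs within 5 kb of a same-strand gene the level was 0.0970, a sense contig 83.7%, the log2 ratio -1.61, exon overlap 26.3% and a de novo exon 27.7%, and the share near a gene is then 0 by construction and was not computed. Contigs of 200 bp or longer had a level of 0.0850, a log2 ratio of -1.96, exon overlap of 31.2%, a junction in 30.7%, a de novo exon in 28.0% and a near gene in 18.1%.

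With sense contigs at the same reproducibility maximum, 75.9% had one and the log2 ratio was -1.94. It was -1.77 against the highest sense contig and -3.40 against the gene's RPKM. A junction was found for 3.94% within 1 bp of a contig end, 3.07% with 10 reads or more and 3.85% at a junction reproducibility of 0.1 or less. A de novo exon at 1 RPKM was found for 0.550%, exon overlap of at least 50% for 9.26%, and a near gene for 4.06% at 1 kb and 29.7% at 10 kb. With 1 of the 2 values left out, a de novo exon above 0 was found for 24.9% to 25.6%, and 121 to 132 annotated antisense genes reached 1 TPM. With no low filter, 525 of these genes had a value above 0, with a median log2 ratio of 0.00 between replicates. The causes of these shifts were not tested, beyond the stricter selection itself.

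No paired analysis was possible because both libraries belong to the same group. Contigs pool both libraries, so their levels carry no error between animals. The antisense contigs held a median of 24.0 reads and at least 11.3, while contigs opposite genes above the reproducibility maximum held as few as 1, so RNA of few reads is largely left out by the maximum. What greater depth would add was not tested.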
